A study of Mus musculus with 20 samples.

Results

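The sarcomere and contractile genes are 46 genes of the muscle contractile unit: myosins, actins, troponins and tropomyosins, proteins of the Z disc and M band, and muscle proteins of energy and oxygen supply. Members were all probe sets whose only gene symbol in the array's annotation is one of these 46, which gave 65 of 22626 probe sets once the array's control probe sets were set aside. Of these, 57 passed a filter on dim signals and were tested among 14379 probe sets, and they stood for 40 genes. Mybpc1, Mybpc2, Neb and Lmod3 had no probe set with that sole symbol, and Myh2 and Ckmt2 had none that passed the filter, with highest signals of 80.2 and 95.7. The members were set by name and not by a threshold on their values.

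C2C12 is a mouse muscle precursor cell line whose cells, once serum is lowered, fuse and form myotubes, fibres with many nuclei. All groups were C2C12 myotubes differentiated for 96 h and then kept for 2 h in medium with 0.5% horse serum, with 0, 1, 10, 100 or 1000 µM hydrogen peroxide (H2O2). RNA from the samples was read on Affymetrix Mouse Genome 430A arrays, with 4 arrays per dose and 20 in all. The question was how each dose changed mRNA levels relative to untreated myotubes. The design text calls the replicates independent without stating whether each was its own culture. The p-values therefore reflect only how these samples vary, and that may be technical variation. Such myotubes come from 1 line and have no nerve supply.

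In a sarcomere, myosin heads on the thick filaments pull on actin in the thin filaments. Troponin and tropomyosin on the thin filament let calcium switch this on and off. The Z disc anchors the thin filaments, the M band cross-links the thick ones, and titin spans from one to the other. Muscle makes developmental, slow and fast versions of many of these proteins, and cultured myotubes express developmental versions beside adult ones. As a check of the labelled cell type, 40 of the 42 members with a probe set had a tested one, against 8159 of all 12393 genes. Of the 57 tested member probe sets, 34 were among the brightest 10% of those tested. In RNA from whole cultures, fewer myotubes and less RNA per myotube cannot be told apart.

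The promoters of 5 members are shown because the results below name these genes. Myh4 and Ldb3 were lower at 1000 µM, Myh8 is the developmental counterpart of Myh4, and Actc1 and Acta1 encode muscle actins of the thin filament. Each is the 250 bases before the annotated start, from RefSeq on mouse build GRCm38.p6: Myh4 at chr11:67237562-67237811 on the + strand, Myh8 at chr11:67276874-67277123 on the + strand, Ldb3 at chr14:34588682-34588931 on the - strand, Actc1 at chr2:114052876-114053125 on the - strand and Acta1 at chr8:123894776-123895025 on the - strand. Capitals mark every match, on either strand, to CANNTG (the E box, bound by myogenic factors such as MyoD), CATTCC (the core of the MCAT element), TATAAA (the TATA box), the CArG box (bound by serum response factor) and TGACNNNGC (the core of the antioxidant response element).
Myh4: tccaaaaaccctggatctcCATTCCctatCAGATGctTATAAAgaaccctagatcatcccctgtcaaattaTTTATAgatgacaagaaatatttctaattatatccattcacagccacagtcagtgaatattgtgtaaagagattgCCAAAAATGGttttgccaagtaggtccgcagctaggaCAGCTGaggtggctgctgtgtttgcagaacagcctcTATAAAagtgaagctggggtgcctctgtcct
Myh8: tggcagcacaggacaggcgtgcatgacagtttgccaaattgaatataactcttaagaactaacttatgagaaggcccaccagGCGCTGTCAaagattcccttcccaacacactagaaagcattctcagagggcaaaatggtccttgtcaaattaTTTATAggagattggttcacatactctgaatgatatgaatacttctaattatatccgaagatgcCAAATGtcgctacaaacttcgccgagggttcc
Ldb3: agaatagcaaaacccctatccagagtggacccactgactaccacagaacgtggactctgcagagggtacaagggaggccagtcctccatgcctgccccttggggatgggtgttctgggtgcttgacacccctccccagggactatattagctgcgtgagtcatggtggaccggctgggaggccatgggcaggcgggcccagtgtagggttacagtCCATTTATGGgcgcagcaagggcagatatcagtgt
Actc1: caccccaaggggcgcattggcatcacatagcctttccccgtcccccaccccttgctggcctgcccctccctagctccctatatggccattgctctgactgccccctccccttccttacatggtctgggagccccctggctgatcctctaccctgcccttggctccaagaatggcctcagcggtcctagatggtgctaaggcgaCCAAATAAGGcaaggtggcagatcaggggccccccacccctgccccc
Acta1: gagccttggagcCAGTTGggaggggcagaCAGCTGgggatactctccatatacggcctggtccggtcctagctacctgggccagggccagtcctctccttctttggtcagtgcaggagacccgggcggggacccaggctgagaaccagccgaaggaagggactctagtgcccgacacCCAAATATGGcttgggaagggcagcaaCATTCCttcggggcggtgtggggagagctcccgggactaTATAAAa

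Of the 46 members, 37 matched an entry in the promoter table, and the others were Actn3, Lmod3, Myom2, Myoz1, Neb, Tcap, Tnni2, Tnnt3 and Xirp1. A CArG box was found in 6 of the 37 member promoters (16.2%), against 1.4% of 27025 promoters of the same length. Myh4, Ldb3, Actc1 and Acta1 each held 1, with its first base 104, 35, 47 and 73 bases before the start, and Myh8 had no match. CATTCC was found in 32.4% of member promoters and 12.6% of all, and CANNTG in 81.1% and 66%. TATAAA was found in 21.6% of member promoters and 13% of all. TGACNNNGC was found in 4 of the 37 (10.8%) and in 10.1% of all. These are matches of letters and not binding sites.

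All signals are linear probe-set values that the authors' software scaled to a common trimmed mean. Differences are log2 of dose over untreated with their standard errors (SE), adjusted p-values are from limma with Benjamini-Hochberg adjustment over all 14379 probe sets, and a probe set is called higher or lower at an adjusted p under 0.05. A gene is represented by its brightest tested probe set. The 4 arrays numbered 1, and a 10 µM array without a number, stood apart from the other 15 arrays on the first principal component, and each dose holds 1 of these 5. Results are therefore also given for replicates 2 to 4 alone or with the replicate number as a block. Over the 57 member probe sets, the SE of a difference ran from 0.07 to 0.30 with a median of 0.12. 

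No member was called at 1, 10 or 100 µM, and 6 of the 57 member probe sets were called at 1000 µM, 2 higher and 4 lower. Over all tested probe sets, limma called 0% in either direction at 1 µM, and 0% higher and 0.00695% lower at 10 µM. It called 0.862% higher and 0.355% lower at 100 µM, and 2.46% higher and 8.48% lower at 1000 µM. At an unadjusted p under 0.05 there were 9, 3, 10 and 22 member probe sets at 1, 10, 100 and 1000 µM. Over all tested probe sets those shares were 6.68%, 4.99%, 11.2% and 26.2%. The 4 arrays lay all above the untreated ones in 6 member probe sets and all below in 1 at 100 µM, against 3.79% and 5.19% of all tested probe sets. At 1000 µM they lay all above in 14 and all below in 4, against 6.66% and 13.8%. The 95% interval of a difference lay wholly within ±0.5 on the log2 scale for 45 of 57 member probe sets at 100 µM and for 33 at 1000 µM. It lay within ±1 for 56 and 53 of them.

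The split of the calls at 1000 µM depended on how the arrays were scaled. With each array centred on its median signal, 11 member probe sets were called, all of them higher, against 8.03% of all probe sets called higher and 4.09% lower. After quantile normalization 1 was called, Myom2, which was lower, against 2.04% of all called higher and 3.32% lower. With the replicate number as a block, 14 were called, 8 higher and 6 lower, among them all 6 of the fit without the block. Under that block 5.87% of all tested probe sets were called higher and 14% lower. In replicates 2 to 4 alone 10 were called, 4 higher and 6 lower, and 5 of these were among the 6; there 4.85% of all were called higher and 12.7% lower.

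**Figure D1:**
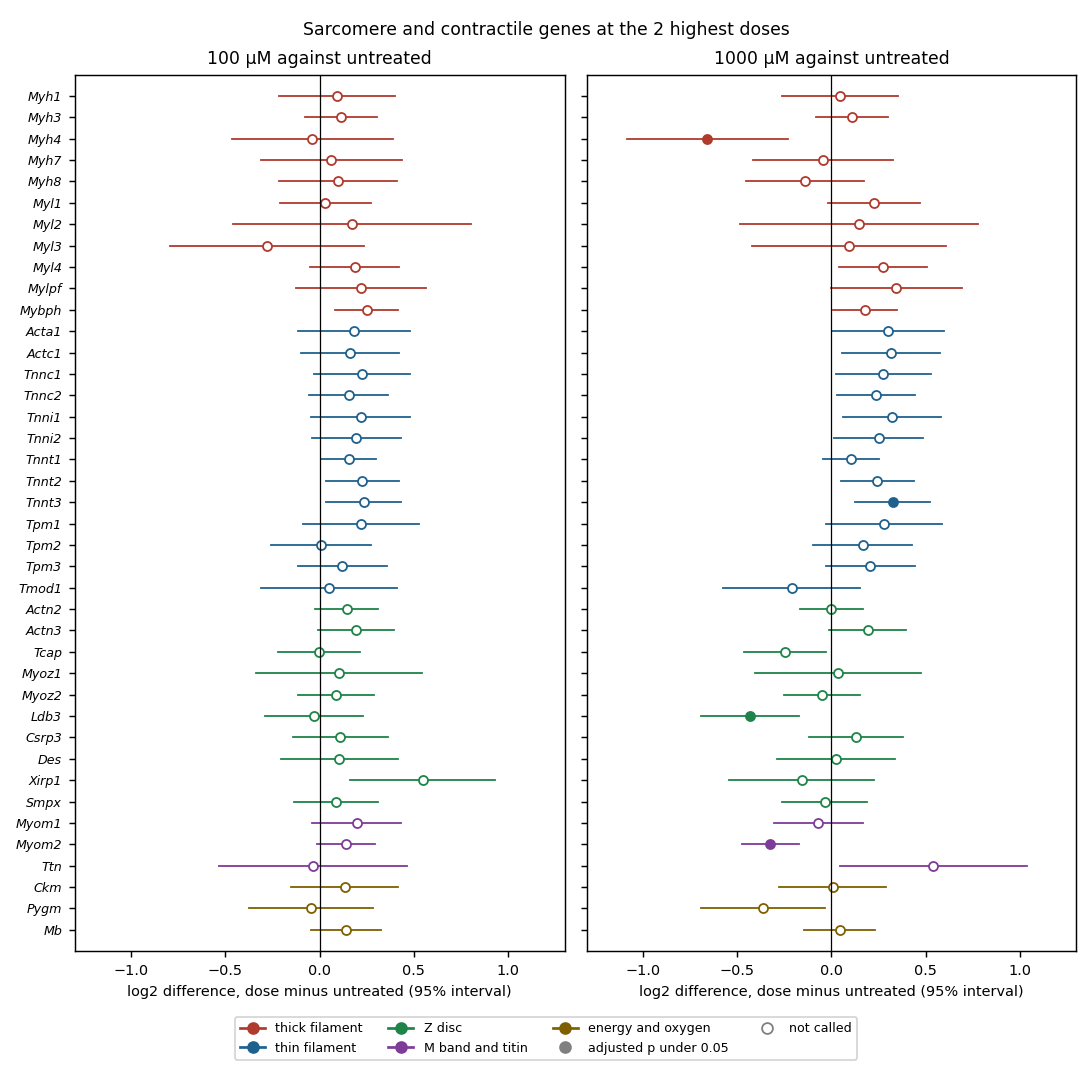
Difference in log2 signal between each dose and untreated myotubes for the 40 tested member genes (point, with its 95% interval), ordered and coloured by role, at 100 µM and at 1000 µM. At 100 µM no point is filled, and at 1000 µM the filled points are Myh4, Ldb3 and Myom2 below 0 and Tnnt3 above 0.

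Through the probe set that represents a gene, 4 genes were called at 1000 µM, 1 in each of 4 structures. Myom2, Ldb3 and Myh4 were lower and Tnnt3 was higher. Over all 8159 tested genes, 2.64% were called higher and 8.05% lower at 1000 µM. Xirp1 and Myom2 were also lower at 1000 µM than at 100 µM.

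The M band protein with a call was Myom2 (myomesin 2, which cross-links myosin filaments). Its signals were 2226, 2571, 2491 and 2582 at 1000 µM, against 2876, 3403, 3094 and 2985 in untreated myotubes. All 4 arrays at 1000 µM lay below all 4 untreated ones. The difference was -0.32 (SE 0.07, n = 4 each, adjusted p = 0.00729), a signal 0.799 times the untreated one. At 100 µM its signals were 3376, 3126, 3450.0 and 3649, which overlapped the untreated ones, with a difference of 0.14 (adjusted p = 0.512). Myom2 was also lower at 1000 µM than at 100 µM, with a difference of -0.46 (SE 0.07, adjusted p = 0.000706) and no overlap. In that comparison limma called 0.744% of all probe sets higher and 3.6% lower, and of the members 0 higher and 2 lower. Under median centring the difference from untreated myotubes was -0.20 and no longer called (adjusted p = 0.105); it was called in each fit that left out 1 array (adjusted p from 0.00585 to 0.0336). Its relative Myom1 (myomesin 1) had differences of 0.20 at 100 µM and -0.07 at 1000 µM and was not called.

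Titin (Ttn), the spring-like protein that spans from Z disc to M band, had higher values at 1000 µM, which were called with the replicate block but not in the model of dose alone. Its representative probe set read 7995, 5517, 5148 and 4919 at 1000 µM, against 5141, 3938, 3698 and 3334 in untreated myotubes. The replicate 1 array was the highest of its group in both, and each array at 1000 µM was above the untreated array of the same number. The difference was 0.54 (SE 0.24, adjusted p = 0.153), and with the block it was 0.54 (SE 0.11, adjusted p = 0.00187). In replicates 2 to 4 alone it was 0.51 (adjusted p = 0.000115). The second titin probe set gave 0.54 (adjusted p = 0.064, with the block 0.00182). It was the only member probe set called higher in the linear trend over dose rank (adjusted p = 0.0450), where 2.82% of all tested probe sets were called higher and 8.39% lower. At 1, 10 and 100 µM the representative differed from untreated by -0.29, -0.12 and -0.03, and none of these was called in the model of dose alone. In replicates 2 to 4 alone the representative was called lower at 1 µM (-0.47, adjusted p = 0.00654). At 1000 µM the 2 titin probe sets gave 0.34 and 0.40 after quantile normalization, where neither was called. Under median centring both gave 0.67. Titin was singled out here after its values were seen.

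Among the Z disc genes, Ldb3 (ZASP or Cypher, a PDZ and LIM domain protein that binds alpha-actinin) was lower at 1000 µM. Its representative probe set read 935, 848, 786 and 720.4 at 1000 µM, against 1321, 1108, 1041 and 974 in untreated myotubes. The groups did not overlap, and replicate 1 was the highest array in both. The difference was -0.43 (SE 0.12, adjusted p = 0.0310), and -0.41 in replicates 2 to 4 alone (adjusted p = 0.00130). Its other probe sets gave -0.03 (adjusted p = 0.896) and -0.21 (adjusted p = 0.280). The call was lost under median centring (adjusted p = 0.0969), after quantile normalization (0.0771), and without untreated replicate 1 (0.104) or 2 (0.0658) or 1000 µM replicate 2 (0.0568), 3 (0.0776) or 4 (0.101). At 1, 10 and 100 µM the differences were -0.16, -0.19 and -0.03.

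Xirp1 (Xin, an actin-binding protein of the Z disc region that marks damaged and remodelling myofibrils) had its highest mean signal at 100 µM. The arrays at this dose read 1430.5, 1013, 781 and 823, against 746, 722, 638 and 595 in untreated myotubes. All 4 arrays at 100 µM lay above all 4 untreated ones. The difference was 0.55 (SE 0.18), the largest at 100 µM among the representative probe sets of the 40 genes, and was not called (adjusted p = 0.206). With the replicate block its adjusted p was 0.00619, and Xirp1 was then the only member probe set called at 100 µM, where 1.53% of all tested probe sets were called higher and 1.27% lower. In replicates 2 to 4 alone the difference was 0.42 (adjusted p = 0.0470). At 1 and 10 µM the differences were 0.35 and 0.27, not called.

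At 1000 µM Xirp1 read 671, 632, 538 and 579, which overlapped the untreated signals, with a difference of -0.16 (adjusted p = 0.645). The difference between 1000 µM and 100 µM was -0.70 (SE 0.18, adjusted p = 0.0332), and these groups did not overlap. That call was lost under median centring (adjusted p = 0.0593), after quantile normalization (0.0609), and without 100 µM replicate 1 (0.118) or 2 (0.080) or 1000 µM replicate 2 (0.0664), 3 (0.0937) or 4 (0.0838).

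The other 8 Z disc genes were not called at any dose in the model of dose alone. Csrp3 (muscle LIM protein) was called higher at 1000 µM in replicates 2 to 4 alone (0.20, adjusted p = 0.0408) and with array weights (0.18, adjusted p = 0.0388). The others of the 8 are Actn2 and Actn3 (alpha-actinins, which cross-link actin), Tcap (telethonin, which caps titin), Myoz1 and Myoz2 (which bind calcineurin), Des (desmin, the intermediate filament protein) and Smpx. The differences of the 8 at 1000 µM ran from -0.25 for Tcap to 0.19 for Actn3. Over the 10 Z disc genes the median was 0.10 at 100 µM, -0.02 at 1000 µM and -0.13 for 1000 µM against 100 µM. The sign at 1000 µM turned to 0.04 in replicates 2 to 4 alone and 0.11 under median centring, each with 7 of 10 above 0. For 1000 µM against 100 µM 9 of the 10 were below 0, and over all 8159 tested genes the median was -0.03 with 4507 below 0. Under median centring 7 of the 10 were below 0 (median -0.05), and after quantile normalization 9 (median -0.18).

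**Figure D2:**
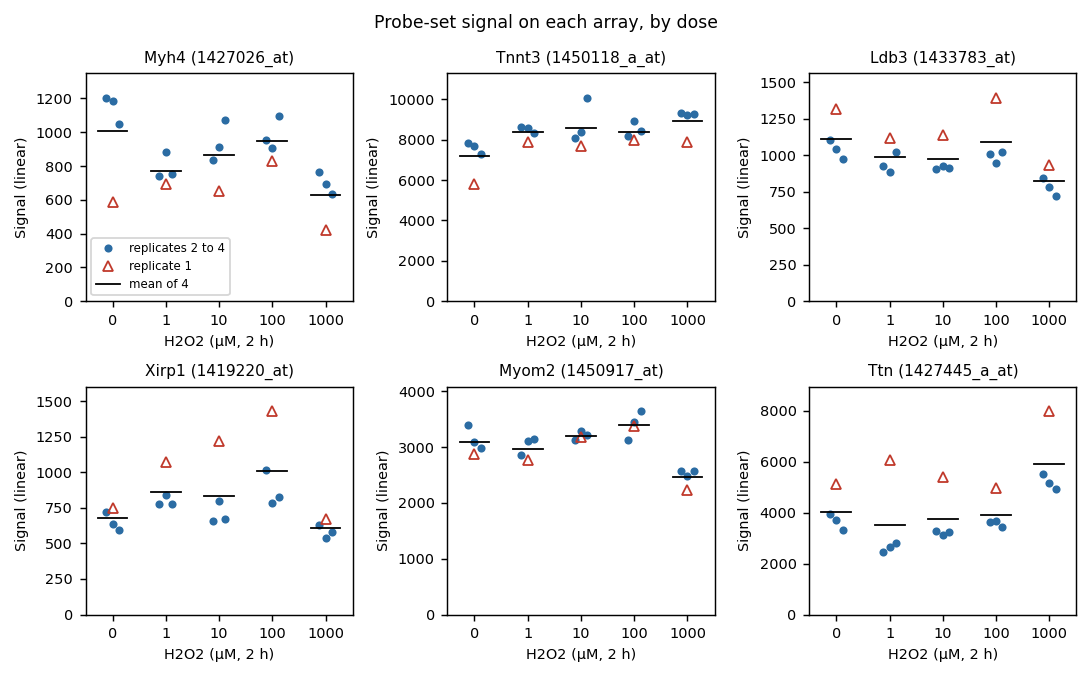
Linear signal on each array by dose for the genes that the results turn on, with replicates 2 to 4 as blue points, replicate 1 as an open red triangle and the mean of 4 as a line. Myom2, Ldb3 and Myh4 have their lowest mean at 1000 µM, Tnnt3 its highest, and Xirp1 its highest at 100 µM and its lowest at 1000 µM.

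In the thick filament, Myh4 (the fast type 2B myosin heavy chain) was lower at 1000 µM. It read 419, 765, 693 and 633 at 1000 µM, against 586, 1204, 1185 and 1046 in untreated myotubes. The groups overlapped through the untreated replicate 1 array, and within each replicate number the array at 1000 µM was the lower one. The difference was -0.66 (SE 0.21, adjusted p = 0.0434), a signal 0.633 times the untreated one. In replicates 2 to 4 alone it was -0.72 (adjusted p = 0.000225), and with the replicate block the adjusted p was 0.00225. The call was lost with no filter (adjusted p = 0.0613), under median centring (0.109), after quantile normalization (0.145), without an intensity trend in the variance (0.0588) and in 11 of the 20 fits that left out 1 array. At 1 µM its difference was -0.34, not called, but in replicates 2 to 4 alone it was called there at -0.53 (adjusted p = 0.0272). The representative titin probe set was also called lower there, at -0.47 (adjusted p = 0.00654).

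The other thick filament genes were not called through their representative probe sets in the model of dose alone. Mybph (myosin binding protein H) read 8541, 9127, 8952 and 8932 at 100 µM, against 6487, 8129, 8331 and 7113 in untreated myotubes. All 4 treated arrays were higher, the difference was 0.25 (SE 0.08), and the adjusted p was 0.181, the lowest at this dose among the members. At 1000 µM its difference was 0.18 (adjusted p = 0.169). After quantile normalization the Mybph differences were 0.10 at 100 µM and -0.09 at 1000 µM. The regulatory light chain Mylpf had the largest positive value of the 11 at 1000 µM, 0.34, not called, and was called with the replicate block (adjusted p = 0.0335) and with a batch term (0.0195). Over the 11 genes the median was 0.10 at 100 µM, with 9 above 0, and 0.11 at 1000 µM, with 8 above 0.

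The thin filament genes had the highest role medians as deposited, 0.18 at 100 µM and 0.25 at 1000 µM, with 13 of 13 and 12 of 13 genes above 0. The values were not particular to these doses: at 1 and 10 µM the medians were 0.20 and 0.17, each with 12 of 13 above 0. Over all 40 member genes, 30, 32, 34 and 27 lay above 0 at 1, 10, 100 and 1000 µM. The highest rank at 100 and 1000 µM was lost after quantile normalization. There the 3 M band and titin genes had 0.09 at 100 µM and -0.02 at 1000 µM, against 0.04 and -0.03 for the thin filament. In the model of dose alone, only Tnnt3 (fast skeletal troponin T, the subunit that binds tropomyosin) was called through its representative probe set. It read 7883, 9338, 9238 and 9288 at 1000 µM, against 5819, 7846, 7709 and 7290.4 in untreated myotubes, and the groups did not overlap. The difference was 0.32 (SE 0.10, adjusted p = 0.0340), a 1.25-fold signal. After quantile normalization it was 0.07 (adjusted p = 0.604), and the call was also lost with no filter (0.0643) and without untreated replicate 1 (0.114) or 4 (0.0586) or 1000 µM replicate 2 (0.0914), 3 (0.0856) or 4 (0.0894). At 1, 10 and 100 µM its differences were 0.23, 0.26 and 0.23, not called. With the replicate block, Tnni1 (slow troponin I) was also called higher at 1000 µM through its representative (0.32, adjusted p = 0.0491), as were further probe sets of Tnnt2 (cardiac troponin T, 0.0442) and Tpm1 (alpha-tropomyosin, 0.0417). A batch term also called the representatives of Tnni1 (adjusted p = 0.0288), Tnni2 (0.0464), Tnnt2 (0.04995) and Tpm1 (0.0488).

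Tropomodulin 1 (Tmod1), which caps the pointed end of the thin filament, was the 1 thin filament gene below 0 at 1000 µM, with -0.21. The other thin filament genes at 1000 µM ran from 0.10 for Tnnt1 (slow troponin T) to 0.32 for Tnni1, with Actc1 at 0.32 (adjusted p = 0.109) and Acta1 at 0.30 (adjusted p = 0.190). At 100 µM the lowest unadjusted p-values after Mybph and Xirp1 belonged to Tnnt3 (0.0241), Tnnt2 (0.0247) and Tnnt1 (0.0413), none of them called. Tnnt2 read 9906, 9733, 10765 and 9329.7 at 100 µM, against 7252, 9084, 9623 and 8162 in untreated myotubes, and the groups overlapped. Tnnt1 read 5196, 5191, 5265 and 5124 at 100 µM, against 4192, 4836, 5136 and 4571 in untreated myotubes, and overlapped by the highest untreated array.

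The positive values of the thin filament genes and of the bright light chains Myl1, Myl4 and Mylpf depended on the scaling of bright probe sets. After quantile normalization these 3 light chains gave -0.06, -0.03 and 0.06 at 1000 µM. The dimmer light chains Myl2 and Myl3 gave 0.22 and 0.31 there, against 0.14 and 0.09 as deposited. Of the 57 member probe sets, 34 belonged to the brightest 10% of those tested. Their median difference was 0.22 at 1000 µM and 0.14 at 100 µM, against 0.17 and 0.08 for the other 1404 probe sets of that 10%. Median centring added 0.13 to every difference at 1000 µM. Quantile normalization brought the median of the brightest 10% to 0.01. Over the 40 member genes at 1000 µM the median was then -0.06 with 12 above 0, against 0.11 with 27 above 0 as deposited and 0.23 with 32 above 0 under median centring. The thin filament median was 0.25 as deposited and 0.38 under centring, and turned to -0.03 after quantile normalization; the thick filament median was 0.11, 0.23 and -0.07. At 100 µM the thin filament median was 0.18 as deposited, 0.23 under centring and 0.04 after quantile normalization. The untreated replicate 1 array had lower bright members than untreated replicates 2 to 4, with a median difference of -0.14, and of -0.18 over the whole brightest 10%. In replicates 2 to 4 alone the thin filament median at 1000 µM was 0.14. The part of array scaling in these values was not tested further.

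**Figure D3:**
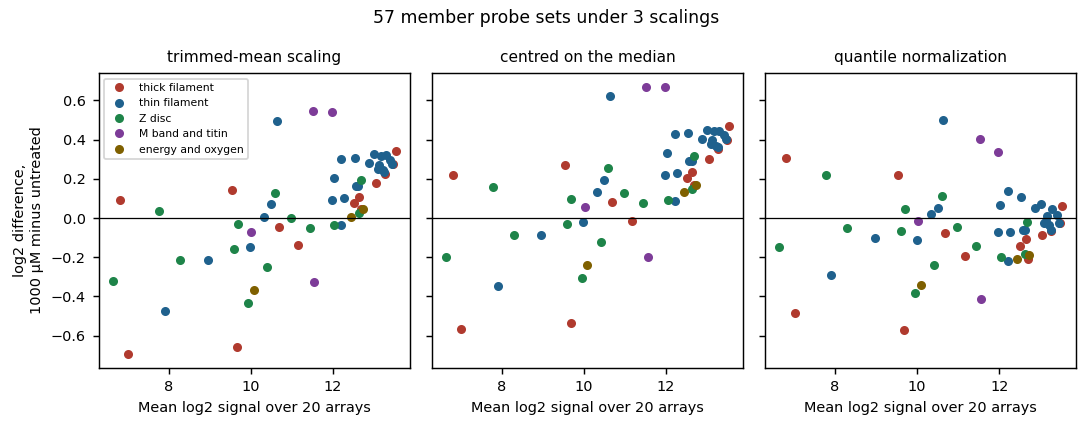
Difference in log2 signal, 1000 µM minus untreated, against mean log2 signal over the 20 arrays for the 57 member probe sets, coloured by role, under the deposited scaling, median centring and quantile normalization. The 13 probe sets with a mean of 13 or more lie between 0.18 and 0.34 as deposited, between 0.30 and 0.47 after centring, and between -0.09 and 0.07 after quantile normalization.

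The 3 tested genes of energy and oxygen supply were not called. Ckm (muscle creatine kinase) and Mb (myoglobin) differed by 0.01 and 0.04 at 1000 µM. After quantile normalization they differed by -0.21 and -0.19, neither called, and 0 of the 3 genes were above 0. Pygm (muscle glycogen phosphorylase) read 1054, 861, 956 and 990.5 at 1000 µM, against 1966, 1122, 1184 and 904 in untreated myotubes. The untreated replicate 1 array was far above the others, the groups overlapped, and the difference was -0.36 (adjusted p = 0.146, with the replicate block 0.0355).

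Genes with several probe sets did not always agree. The representative of Myl4 (the embryonic and atrial light chain) differed by 0.27 at 1000 µM (adjusted p = 0.127), while a dimmer probe set read 122, 117, 82.1 and 86.0 at 1000 µM, against 184, 158, 166 and 142 in untreated myotubes, and was called lower, with a difference of -0.69 (SE 0.21, adjusted p = 0.0408). Tpm1 gave 0.28 and 0.30 from 2 bright probe sets. Another, dim one read 195, 234, 213 and 167 at 1000 µM, against 302, 279, 259.7 and 277 in untreated myotubes, and gave -0.47 (adjusted p = 0.0505, with the replicate block 0.0250). That dim probe set was the only member called lower in the dose trend (adjusted p = 0.0434). Tpm2 (beta-tropomyosin) had 4 probe sets, all above 0, of which 1 was called: it read 6784, 6072, 6683 and 6866 at 1000 µM, against 4838, 5713, 5707 and 5121 in untreated myotubes, a difference of 0.31 (adjusted p = 0.0367), while the representative gave 0.17. Des, Tnni2 and Tpm3 also had probe sets on both sides of 0, none of them called in the model of dose alone. The 5 probe sets of Tpm3 ran from -0.18 to 0.61 at 100 µM and from -0.15 to 0.50 at 1000 µM. Myh1, Myl3, Tnni2, Myoz1 and Mb each had at least 1 more probe set that did not pass the filter. That of Myh1 had a highest signal of 16.8, while its 2 tested probe sets had mean log2 signals of 12.7 and 12.5. Which of them measures Myh1 was not tested.

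**Figure D4:**
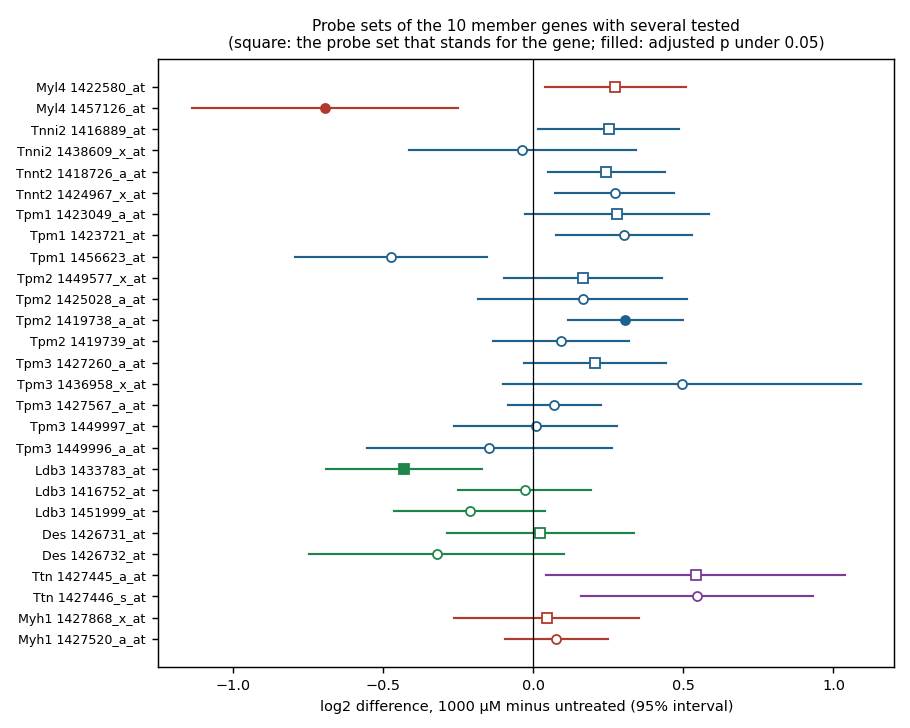
Difference in log2 signal, 1000 µM minus untreated, with its 95% interval, for each tested probe set of the 10 member genes that have several, with a square for the representative. Des, Myl4, Tnni2, Tpm1 and Tpm3 have points on both sides of 0, and Ttn lies at 0.54 in both probe sets.

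The developmental and adult isoforms were compared as the difference in log2 signal between the members of a pair on each array. For 7 pairs, of which 6 are reported, this was tested at 100 and 1000 µM, 14 tests in all, by exact two-sided permutation over 70 assignments, for which the smallest possible p is 0.0286. After adjustment, a pair could be called only if at least 9 of the 14 tests reached that p. The adjusted p-values of the 6 pairs, taken over all 14 tests, were 0.900 or above. For Myh8 minus Myh4 (perinatal and fast type 2B myosin) the difference averaged 1.75 ± 0.59 at 1000 µM and 1.23 ± 0.43 in untreated myotubes (SD, n = 4 each), a shift of 0.52 with an exact p of 0.200. On the arrays it was 2.60, 1.44, 1.28 and 1.67 at 1000 µM, against 1.87, 1.02, 1.04 and 0.98 in untreated myotubes, with replicate 1 the highest in both groups. Within replicate numbers 1 to 4, the shift was 0.73, 0.42, 0.23 and 0.69, all above 0, and the exact paired p was 0.125, the smallest that 4 pairs can give. The groups did not overlap in replicates 2 to 4, with an exact p of 0.1, again the smallest possible. At 100 µM the shifts within replicate numbers were -0.23, 0.31, 0.30 and 0.17. Myh8 itself had -0.14 at 1000 µM and 0.10 at 100 µM, not called, but in replicates 2 to 4 alone it was called lower at 1000 µM (-0.27, adjusted p = 0.0308).

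The next largest shift was Myl4 minus Myl1 (embryonic and fast essential light chain) at 100 µM, 0.16 with an exact p of 0.114. At 1000 µM the shifts of group means were 0.06 for Myh3 minus Myh1 (embryonic and fast type 2X myosin) and 0.05 for Myl4 minus Myl1. They were 0.07 for Tnni1 minus Tnni2 (slow and fast troponin I), 0.04 for Tnnc1 minus Tnnc2 (slow and fast troponin C) and -0.08 for Tnnt2 minus Tnnt3. Within replicate numbers 1 to 4 the shift of Tnnt2 minus Tnnt3 was 0.14, -0.19, -0.17 and -0.11. In replicates 2 to 4 its groups did not overlap, with an exact p of 0.1, in the direction opposite to Myh8 minus Myh4. For Myh1 the pair used a bright probe set, while another Myh1 probe set stayed below the filter. The sign of Tnni1 minus Tnni2 turned under another setting: it was -0.01 in replicates 2 to 4 alone. By class, the median difference at 1000 µM was 0.24 over 5 developmental genes, 0.12 over 6 slow or cardiac genes and 0.24 over 9 adult fast genes, and at 100 µM it was 0.16, 0.16 and 0.18. After quantile normalization the 3 medians at 1000 µM were -0.04, 0.01 and -0.03. Of the adult fast genes Tnnt3 was called higher and Myh4 lower at 1000 µM. None of the other 2 classes was called through its representative probe set in the model of dose alone, while the dimmer Myl4 probe set was lower. Tnni1, of the slow or cardiac class, was called with the replicate block (adjusted p = 0.0491). With a batch term Tnni1 (0.0288) and the developmental Myl4 (0.0488) and Tnnt2 (0.04995) were called higher through their representatives. The 3 medians at 1000 µM were 0.13, 0.13 and 0.14 in replicates 2 to 4 alone.

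**Figure D5:**
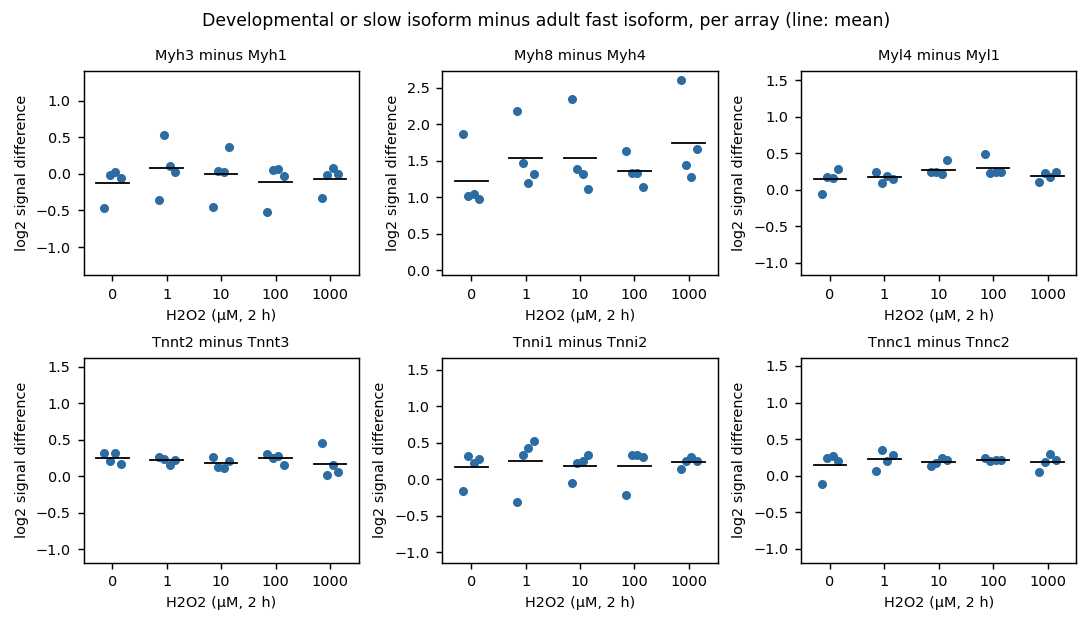
Difference in log2 signal between the developmental or slow isoform and its adult fast counterpart on each array, by dose, for 6 pairs, with the line at the mean of the 4 arrays and the first point of each dose being replicate 1. In Myh8 minus Myh4 the mean at 1000 µM is 1.75 and the untreated mean 1.23. The points overlap through untreated replicate 1, and those of replicates 2 to 4 do not. Replicates 2 to 4 also lie above untreated replicates 2 to 4 at 1, 10 and 100 µM.

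Of 35 further sarcomere genes, 24 were tested; at 100 µM limma called 0 of them, against 0.993% higher and 0.404% lower over all tested genes. At 1000 µM 1 was higher and 3 were lower, against 2.64% and 8.05%. Synpo2 (myopodin, of the Z disc) read 779, 683, 670.1 and 632 at 1000 µM, against 1365, 993, 993 and 919 in untreated myotubes, with no overlap and a difference of -0.61 (adjusted p = 0.00705). Myot (myotilin, of the Z disc) had -0.56 (adjusted p = 0.0329) and Nrap (an actin-binding protein of myofibril assembly) -0.46 (adjusted p = 0.0454). Cryab (alpha-B crystallin, a small heat shock protein that binds desmin) was higher by 0.36 (adjusted p = 0.0343). The calls of Myot and Nrap were lost under median centring (adjusted p = 0.0834 and 0.124), and those of Myot, Nrap and Cryab after quantile normalization (0.104, 0.192 and 0.392). With the replicate block, Ankrd2 (0.22, adjusted p = 0.0266) and Capn3 (-0.41, adjusted p = 0.0390) were called at 1000 µM as well, and Lmod2 at 100 µM (0.46, adjusted p = 0.0186). Against 100 µM, 1000 µM was lower for Nrap (-0.72), Lmod2 (-0.70, leiomodin 2, a thin filament nucleator) and Synpo2 (-0.56), and no gene of the list was higher, against 0.76% higher and 3.62% lower over all tested genes. The median over the 24 was 0.07 at 100 µM and -0.05 at 1000 µM, and the value at 1000 µM turned to 0.07 under median centring and was -0.10 in replicates 2 to 4 alone.

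Markers of other cells in the culture were also read. Of 6 tested genes of cycling cells, Mki67 was lower at 1000 µM (-0.50, adjusted p = 0.00268) and no other was called in the model of dose alone. Cdk1 was called higher with the replicate block (0.29, adjusted p = 0.0407), a batch term (0.0239), median centring (0.0160) and array weights (0.0275). No gene was called in the model of dose alone among 5 tested fibroblast and matrix genes, whose median was 0.10 (-0.02 after quantile normalization and 0.03 in replicates 2 to 4 alone), and among 5 tested smooth muscle genes, whose median was 0.31 (0.08 after quantile normalization and 0.17 in replicates 2 to 4 alone). With the replicate block the smooth muscle gene Tagln was called higher (0.42, adjusted p = 0.00766). It was also called with a batch term (0.00367), array weights (0.0132), median centring (0.0416) and in replicates 2 to 4 alone (0.0335). Acta2 was called higher under median centring (0.44, adjusted p = 0.0441). Of 2 tested cardiac genes, Nppb was higher (0.68, adjusted p = 0.00507), while Myh6, Nppa, Tnni3 and Myl7 had no tested probe set. The part of cell composition in the members' values was not tested.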

How the data were processed

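Gene expression was measured in 20 samples of C2C12 myotubes, 4 per dose of H2O2. The authors deposited linear signal intensity, 1 value per probe set, made with Affymetrix Microarray Suite 5.0 (MAS5), per the submitters' processing notes and the series' design text, and carrying a global scaling: each array's 2% trimmed mean was 500.1 to 500.2. Array medians ran from 150.9 to 185 and array maxima from 11648 to 21257. Detection and difference calls were not used. The 4 arrays per dose limit the precision.

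Of 22690 probe sets, 64 controls were left out. Signals were rescaled to a trimmed mean of 500, floored at 1 and taken to log2, and 14379 probe sets that reached their array's 40th percentile on at least 4 arrays were tested (8247 did not). limma 3.58.1 in R 4.3.3 fitted all arrays in 1 model of dose (lmFit and eBayes, variance trended on signal), with 15 degrees of freedom from the residuals and 5.33 from the prior. Benjamini-Hochberg adjustment covered the 14379 tests of a comparison. The fit was tested on simulated data. The trend used weights of -2, -1, 0, 1 and 2 over the doses. Isoform pairs were compared by an exact permutation test over arrays, and 1 of the 7 is not reported here.

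Probe sets were named from the platform annotation, where only those with 1 gene symbol count as members. The 10 µM array whose title has no number is called replicate 1, sits beside the arrays numbered 1 in the batch term and is left out of the block fit. As a pairing check, the correlation of same-numbered arrays' deviations from their group means was taken over the pairs at 100 and 1000 µM. It was 0.494 to 0.513 for replicate 1 and 0.115 to 0.261 for replicates 2 to 4. Arrays with different numbers were not compared. Because replicate 1 stood apart at each dose, deviations from the mean of 4 move together in replicates 2 to 4 whatever their numbers. The check therefore cannot show pairing, and the block result is given as an alternative. At 10 µM the correlation was 0.0531 for replicate 2, and the numbered 10 µM arrays stayed in the block fit. The pairing comes from the numbers in the titles.

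Named with values were members called through their representative probe set (the one with the highest mean log2 signal) or in another probe set against its direction, both genes of each pair, the 5 smallest p-values at 100 µM and further sarcomere genes called at the 2 highest doses. Titin, Pygm, Mylpf, Csrp3, Cdk1, Tagln, Acta2, Ankrd2, Capn3, Lmod2 and the Tpm2, Tnnt2 and Tpm1 probe sets that are not representatives were added after their values were seen. The members and lists were chosen with earlier results of these data known.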

Additional observations from a re-analysis of the deposited data

Results flagged for a closer look

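In 21 probe sets of the named genes, each dose group of 4 arrays was checked for an array far from the other 3, and 14 of 105 groups had one. Chance alone flags about 1 in 20 groups. The arrays numbered 1, and the 10 µM array beside them, gave 9 of these. Ldb3 at 10 µM had a replicate 1 signal of 1142, above the next at 926. Tnnt3 at 1000 µM had a replicate 1 signal of 7883, below the next at 9238. Myh8 had high replicate 1 signals of 3150.5 at 1 µM and 3308 at 10 µM, and Myh1 of 8897 at 10 µM, 8389 at 100 µM and 7827 at 1000 µM. In Tnni2 replicate 1 was high at 1 µM, at 11224, and in Myl4 it was low at 1 µM, at 10616.5, next to 11833.

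The 10 µM replicate 4 array was high in 4 members: Myl4 at 14957, Tnnt2 at 11647, Tnni1 at 13213 and Tnnc2 at 12673. Myh3 at 1000 µM had a replicate 3 signal of 6783, above the next at 6245. The cause of these gaps was not tested.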

How the results depend on the processing

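Counts of called members differed between settings. At 1000 µM against untreated, 6 were called as deposited, 2 with no filter, 11 under median centring, 1 after quantile normalization, 13 with array weights, 18 with a batch term and 10 in replicates 2 to 4 alone. Array weights called 10.5% of member probe sets higher and 12.3% lower, against 9.28% and 20.4% of all tested probe sets. The batch term called 21.1% and 10.5% of members, against 7.15% and 15.7% of all. With no filter, 252 of 22626 probe sets were called higher and 985 lower. The study's own rule, in which all 16 pairwise ratios lie on one side and the mean fold exceeds 1.75, gave 0. At 100 µM, 0 became 3 with array weights and 1 each with a batch term and in replicates 2 to 4. Over all tested probe sets these settings called 2.73%, 1.94% and 1.36% higher and 3.41%, 2.02% and 1.13% lower. At 1 µM, 0 became 2 in replicates 2 to 4, where 19 of all 14379 were called higher and 88 lower. For 1000 µM against 100 µM, 2 became 12 with array weights, 7 with a batch term and 8 in replicates 2 to 4. These settings called 5.28%, 2.92% and 2.21% of all tested probe sets higher and 13.2%, 8.61% and 6.84% lower. The dose trend, with 2, gave 0 with no filter, 6 under centring, 1 after quantile normalization, 1 without the intensity trend, 12 with array weights, 12 with a batch term and 7 in replicates 2 to 4. Of all 14379, array weights called 1358 higher and 2877 lower in the trend, the batch term 1049 and 2268, and replicates 2 to 4 alone 932 and 2119. Centring called 1039 and 619, quantile normalization 432 and 529, and the fit without the intensity trend 362 and 1225. Leaving out 1 array gave 1 to 9 calls at 1000 µM, 1 to 4 for 1000 µM against 100 µM, 0 to 5 in the trend and 0 at the lower doses. At 1000 µM those fits called 197 to 417 of all tested probe sets higher and 785 to 1420 lower.

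The replicate block, which treats same-numbered arrays as paired, gave 1 call at 100 µM, 14 at 1000 µM, 7 for 1000 µM against 100 µM and 11 in the trend. For 1000 µM against 100 µM the block called 2.3% of all tested probe sets higher and 7.36% lower. In the trend it called 880 of them higher and 2004 lower. No isoform pair was called in any setting, which says nothing about stability: the smallest p was 0.125 with the block and 0.1 in replicates 2 to 4, and elsewhere at least 9 of the 14 tests would have had to reach 0.0286.

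Some signs turned. Median centring gave 0.017 for Ldb3 and 0.0076 for Myh4 at 100 µM. Quantile normalization at 100 µM gave -0.00037 for Myh3, -0.0063 for Myl4, -0.021 for Actc1, -0.046 for Myh1, -0.139 for Myl1, -0.0015 for Acta1 and -0.020 for Tnnc2. At 1000 µM it gave -0.107 for Myh3, -0.028 for Myl4, -0.036 for Tnnt2, -0.026 for Tnnc1, -0.207 for Myh1, -0.064 for Myl1, -0.028 for Tnni2 and -0.058 for Tnnc2. In replicates 2 to 4 the pairs Tnnc1-Tnnc2 (-0.021) at 100 µM and Tnni1-Tnni2 (-0.0085) at 1000 µM also turned. The cause was not tested.

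Leaving out 1 array turned the sign of values near 0. At 100 µM the ranges were -0.152 to 0.057 for Ldb3, -0.28 to 0.067 for Myh4, -0.0014 to 0.151 for Myh1 and -0.037 to 0.142 for Myl1, and Myh1 at 1000 µM ran from -0.033 to 0.102. The pairs at 100 µM ran from -0.093 to 0.158 for Myh3-Myh1, -0.0381 to 0.0245 for Tnnt2-Tnnt3, -0.0865 to 0.156 for Tnni1-Tnni2 and -0.0138 to 0.111 for Tnnc1-Tnnc2. At 1000 µM they ran from -0.0502 to 0.153 for Myh3-Myh1, -0.0186 to 0.0963 for Myl4-Myl1, -0.0385 to 0.122 for Tnni1-Tnni2 and -0.0465 to 0.0866 for Tnnc1-Tnnc2. Among the members the SE of a difference was highest for Myl2, at 0.30. No alternative was added after the planned ones.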
